A study of Mus musculus with 2 samples.

Results

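Transcripts of 6 immunoglobulin genes, Igkc, Ighm, Ighd, Iglc2, Iglc3 and Jchain, were followed in single splenic dendritic cells (DC) to see how far they behave as free RNA, that is, RNA released from other cells that enters droplets with any cell. The 6 genes were chosen by symbol out of 31053 listed genes, with earlier results of these libraries known, among them how often the genes were detected. Their shares and levels are therefore descriptions, and no test was made on them. One library, L-cDC, held tdTomato-positive cells, and the other, M-cDC, tdTomato-negative cells. Both came from the spleens of naive mice of genotype Il7r-cre; Rosa26-lsl-tdTomato, aged 7 to 9 weeks, enriched for CD11c and sorted. In these mice a cell turns on tdTomato permanently once Cre, driven by Il7r, has been made in it or in an ancestor. The number of animals behind each library is not given in the sources used here. There was 1 library per group, so differences between the libraries have no replicate check, and a difference between the sorted populations cannot be told apart from one between the libraries.

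An antibody is built from heavy and light chains, and each chain has a constant region encoded by a gene of its own. Ighm and Ighd encode the mu and delta heavy chain constant regions of IgM and IgD, Igkc encodes the kappa light chain constant region, and Iglc2 and Iglc3 encode constant regions of lambda light chains. Jchain encodes the joining chain of secreted IgM and IgA. B cells and plasma cells are the known makers of rearranged immunoglobulin chains, plasma cells in very large amounts, and B, T and natural killer (NK) cells pass through progenitors that express Il7r. The counts came from a 3′ kit, which reads the end of a transcript, so a constant gene is counted alike whether or not its variable part has been rearranged.

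All 6 gene identifiers were found in the GENCODE M21 annotation of GRCm38. Igkc lies on chromosome 6 (70726435 to 70726966, plus strand, 1 exon), and Jchain, the only 1 of the 6 annotated as an ordinary protein-coding gene, on chromosome 5 (88519809 to 88527891, minus strand, 4 exons). Ighm (113418558 to 113422730) and Ighd (113406604 to 113416324) are neighbours on the minus strand of chromosome 12, with 6 and 5 exons. Iglc2 (19198396 to 19200351) and Iglc3 (19065230 to 19065681) lie on the minus strand of chromosome 16. The 2 lambda genes are so alike that their counts are uncertain: 306 of 317 aligned coding bases (96.5%) are the same. The last 90 coding bases are shown because a 3′ read falls near them, 5′ to 3′ on the minus strand, from chr16:19198536-19198625 for Iglc2 and chr16:19065365-19065454 for Iglc3. The capital marks the 1 base that differs.
Iglc2: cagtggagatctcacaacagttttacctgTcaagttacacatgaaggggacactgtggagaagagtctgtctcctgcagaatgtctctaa
Iglc3: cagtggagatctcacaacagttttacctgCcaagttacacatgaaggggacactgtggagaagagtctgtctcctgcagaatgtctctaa

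The L-cDC library held 4939 barcodes with a median of 7652 UMIs (unique molecular identifiers, each standing for 1 captured RNA molecule), and the M-cDC library 6674 with a median of 7156. After filters, 3943 and 5600 cells were kept, and 6 barcodes occurred in both libraries. Clusters were named "-like" from marker genes: cDC1-like cells had 539 Xcr1 CPM in L-cDC, against 583 in M-cDC (CPM: UMIs of a gene for every 1000000 UMIs), and mature Ccr7+ DC-like cells made up most of both libraries. Cells with a UMI of Cd79a, the signalling chain of the B cell receptor, were set apart. That left 3238 L-cDC and 5358 M-cDC cells in DC classes. Cells of the B lineage differed in number between the libraries: 122 of the L-cDC barcodes and 9 of the M-cDC barcodes had a Cd79a UMI, and the B-like cluster held 53 L-cDC cells and 0 M-cDC cells. The NK-like cluster held 199 L-cDC cells and 1 M-cDC cell. All intervals below are exact 95% intervals that cover counting error only.

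Igkc was found in DC of the L-cDC library far more often than in those of the M-cDC library. A UMI of Igkc was present in 489 of 3238 L-cDC cells, 15.1% (13.9 to 16.4), and in 27 of 5358 M-cDC cells, 0.504% (0.332 to 0.732). As a level, that was 20.97 CPM (659 UMIs) in L-cDC, against 1.33 CPM (62 UMIs) in M-cDC. Among the positive L-cDC cells, 423 of 489 held exactly 1 UMI. Each DC class had a higher share in L-cDC than in M-cDC. Some of these classes were small, and how many of all genes part the libraries in this way is not given here.

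By class, Igkc was detected in 22.2% of L-cDC cDC1-like cells (16.7 to 28.5; 45 of 203) and in 1.0% of M-cDC ones (0.403 to 2.05; 7 of 700). cDC1 are the Xcr1-bearing DC known for presenting antigen to CD8 T cells. In cDC2-like cells, marked by Sirpa and Cd209a, it was 20.2% in L-cDC (65 of 321) and 0.572% in M-cDC (7 of 1224). Cluster 6, which held most L-cDC cells of that class, scored higher for monocyte markers (1.956) than for cDC2 markers (1.645). Its name is therefore uncertain. In mature Ccr7+ DC-like cells, the migratory state of DC, the Igkc share was 13.8% in L-cDC (353 of 2555) and 0.293% in M-cDC (9 of 3076). Cycling-like cells had 10.1% in L-cDC (8 of 79) and 1.39% in M-cDC (4 of 288). The cluster called pDC-like, after plasmacytoid DC, had 22.5% in L-cDC (18 of 80), while 0 of 70 in M-cDC allow a share of up to 4.29%. That cluster rests on a weak signature: its leading gene was Sox4, and Siglech, a defining pDC receptor, reached only 58.0 CPM in L-cDC, against 35.7 CPM in M-cDC.

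NK cells lack rearranged immunoglobulin genes and served as the comparison for background. Igkc was seen in 19.7% of the 198 L-cDC NK-like cells (14.4 to 25.9; median 8131 UMIs per cell), a share above the 15.1% in all L-cDC DC (median 8934). The Igkc share of L-cDC DC as a whole was thus not above that of NK-like cells. Its source was not tested. In that cluster the T cell marker score (4.34) was as high as that of NK markers (4.32), so the name covers NK and T cell genes. NK-like cells were not a clean background: 5 of them held at least 5 UMIs of 1 of the genes other than Ighm, 1 of these with 34 Ly6d UMIs. Ighd and Iglc3 made up 12.4% and 14.6% of the summed UMIs of the 6 genes in NK-like cells, against 1.16% and 2.76% in L-cDC DC. The cDC1-like, cDC2-like and pDC-like shares of L-cDC were higher, at 22.2%, 20.2% and 22.5%, with medians of 16075, 11067 and 10376 UMIs per cell and intervals that overlap that of NK-like cells. As a level, cDC2-like cells were also above NK-like cells, but those without a Ly6d UMI, most of the class, were below them. When every cell was thinned to 3000 UMIs, Igkc was seen in 7.39% of cDC1-like cells, 6.95% of cDC2-like cells, 5.18% of mature cells and 9.60% of NK-like cells in L-cDC. In thinned M-cDC cells the 3 DC classes had 0.434%, 0.258% and 0.169%. M-cDC held too few NK-like cells for the same comparison. Macrophage-like cells stood apart in level in both libraries, with 30.8% of 52 cells (179 CPM) in L-cDC and 20% of 25 cells (102 CPM) in M-cDC, at medians of 3096 and 2852 UMIs per cell. These values rest on few cells: in L-cDC 3 of them held at least 5 Igkc UMIs, up to 10. Ccr7 was at 478 CPM in the L-cDC cells of that cluster, so it may not be of 1 kind. Macrophage-like cells were the only class of M-cDC in which Igkc was common.

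**Figure D1:**
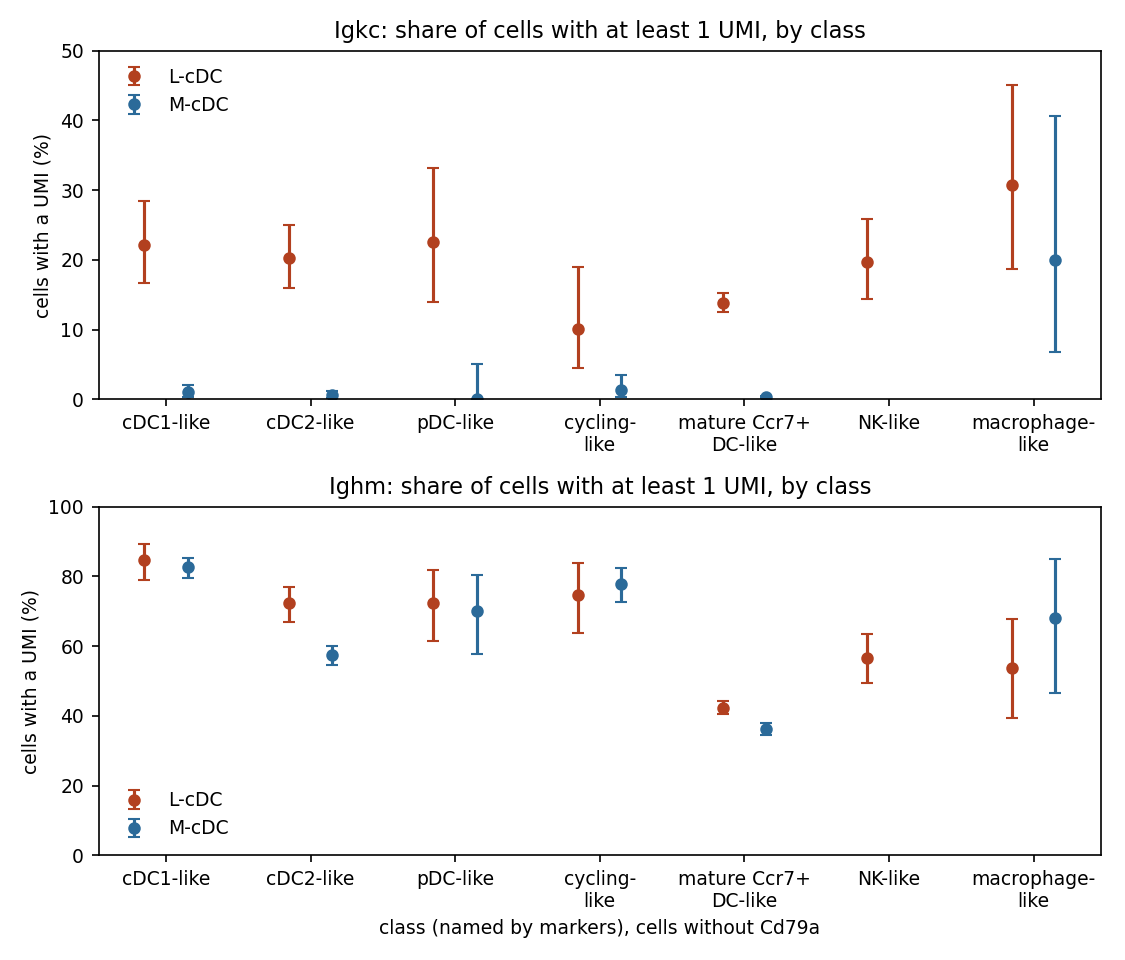
Share of cells with at least 1 UMI (percent, vertical axis) of Igkc (top) and Ighm (bottom) in each class but the B-like cells, L-cDC in red and M-cDC in blue, with exact 95% intervals. Igkc lies between 10.1% and 30.8% in the L-cDC classes drawn and near 0 in M-cDC except in macrophage-like cells, while the Ighm shares of the libraries lie closer together, farthest apart among DC in cDC2-like cells (72.3% in L-cDC, 57.4% in M-cDC). NK-like cells of M-cDC (1 cell) are not drawn.

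The level of Igkc in L-cDC was also rather even across mature clusters. Among the mature clusters with at least 30 L-cDC cells it ran from 12.2 CPM in cluster 4 to 21.1 CPM in cluster 3, and it was 18.1 CPM in cDC1-like cells. It was 44.9 CPM in cDC2-like cells, 32.0 CPM in pDC-like cells and 31.5 CPM in NK-like cells. In M-cDC, Igkc had 0 UMIs in 735 cells of mature cluster 1 and in 572 cells of mature cluster 0. Set against 3 UMIs over each of those groups, L-cDC was 33.5-fold higher in cluster 1 and 21.8-fold higher in cluster 0. The exact lower limits of these ratios, from the 0 counts, were 26.7 and 17.3. L-cDC divided by M-cDC gave ratios of 11.8 (6.6 to 22.3) in cDC1-like cells, 15.9 (10.4 to 25.0) in cDC2-like cells and 30.7 (17.7 to 58.1) in mature cells. Different clusters held most of the cDC2-like cells in the libraries, and the Igkc ratio was 4.85 (2.46 to 9.35) within cluster 5 and 128 (22.7 to 5106) within cluster 6, where M-cDC had 1 UMI.

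The M-cDC values rest on few cells. Of the 26 Igkc UMIs in M-cDC cDC2-like cells, 13 were in 1 cell, which had 0 UMIs of the other 5 genes. Of the 15 in cDC1-like cells, 6 were in 1 cell. UMIs per cell of Igkc were 0.0833, 0.194 and 0.251 in L-cDC cells with under 5000, 5000 to 10000 and at least 10000 UMIs, and 0.0066, 0.00486 and 0.0267 in M-cDC cells. Over all L-cDC DC the number per cell thus grew with depth, but less than in proportion from the middle to the deepest cells: the levels were 25.0, 25.6 and 17.8 CPM. The classes differed in this. In L-cDC mature cells the level fell at each step, from 25.3 to 19.8 and 14.9 CPM. L-cDC cDC2-like cells had 29.6, 100 and 28.0 CPM, the first on 2 UMIs. L-cDC cDC1-like cells had 14.8 CPM in the middle range, on 2 UMIs, and 18.2 CPM in the deepest.

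**Figure D2:**
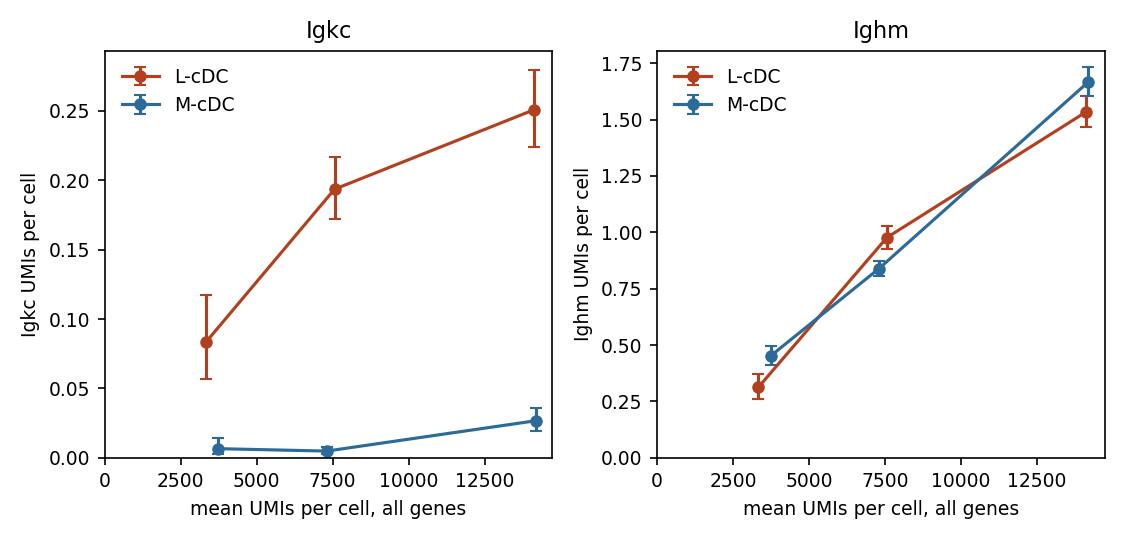
UMIs per cell of Igkc (left) and Ighm (right) against the mean UMIs per cell of all genes, for DC in 3 depth ranges, L-cDC in red and M-cDC in blue, with exact Poisson 95% intervals. Igkc lies at 0.0833 to 0.251 UMIs per cell in L-cDC and at most 0.0267 in M-cDC, and Ighm reaches 1.53 in L-cDC and 1.67 in M-cDC.

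Ighm did not follow the pattern of Igkc: its level was alike in the libraries and uneven over clusters. Its source was not tested. It was detected in 49.5% of L-cDC DC (47.8 to 51.3; 1604 of 3238) and in 49.8% of M-cDC DC (48.5 to 51.2; 2670 of 5358). Its level was 116 CPM in L-cDC (112 to 120) and 117 CPM in M-cDC (113 to 120), although 53 B-like cells were found in L-cDC and 0 in M-cDC. In M-cDC, 87.9% of all Ighm UMIs of the library lay in DC without Cd79a, and in L-cDC 35.7%. Many cells held more than 1 UMI: 774 L-cDC cells had 2 to 4 and 150 had 5 or more, against 1282 and 157 M-cDC cells. NK-like cells of L-cDC also held Ighm, in 56.6% of cells (49.4 to 63.6) at 99.6 CPM, so the share in L-cDC DC as a whole was not above that of NK-like cells. Thinned to 3000 UMIs, the shares in L-cDC were 35.0% in cDC1-like, 39.7% in cDC2-like and 24.7% in mature cells, with 30.3% in NK-like cells. Whether NK-like cells make Ighm transcripts of their own was not tested.

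Ighm also differed between kinds of DC, in the same way in both libraries. It was seen in 84.7% of L-cDC, against 82.6% of M-cDC cDC1-like cells, at 135 and 140 CPM. L-cDC divided by M-cDC gave a ratio of 0.966 (0.867 to 1.08). In cDC2-like cells it was seen in 72.3% of L-cDC, against 57.4% of M-cDC cells, at 191 and 149 CPM, a ratio of 1.28 (1.17 to 1.40). Different clusters held most of that class, cluster 6 in L-cDC (191 of 321 cells) and cluster 5 in M-cDC (1001 of 1224 cells). Within cluster 5 the ratio was 1.05 (0.873 to 1.26) and within cluster 6 it was 1.16 (1.02 to 1.32), and the class ratio changed direction under 4 other cell filters or clusterings. In mature cells the share was 42.4% in L-cDC and 36.3% in M-cDC, and the ratio 1.08 (1.02 to 1.15). pDC-like cells had 72.5% in L-cDC and 70.0% in M-cDC, and cycling-like cells 74.7% and 77.8%.

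Within the mature class, Ighm split the clusters into a high and a low set. It reached 161 CPM in L-cDC, against 151 CPM in M-cDC in cluster 0, led by Mylk, and 177 CPM in L-cDC, against 176 CPM in M-cDC in cluster 1, led by Dnah2. In cluster 4, led by Serpinb1a, it was 21.6 CPM in L-cDC, against 22.5 CPM in M-cDC. Cluster 10, led by Itgb8, had 23.0 CPM in L-cDC, against 17.1 CPM in M-cDC. Cluster 15, led by Txndc17, had 10.3 CPM in L-cDC, against 10.1 CPM in M-cDC, with 4.81% of 270 and 4.47% of 425 cells positive. The share in thinned cells kept the split: 39.9% in L-cDC and 32.9% in M-cDC for cluster 0, and 8.13% in L-cDC and 5.01% in M-cDC for cluster 4, although cells of cluster 4 were deeper. In cluster 15, where Ighm was rare in both libraries, the Igkc share was 8.89% in L-cDC, while 0 of 425 cells in M-cDC allow up to 0.706%.

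**Figure D3:**
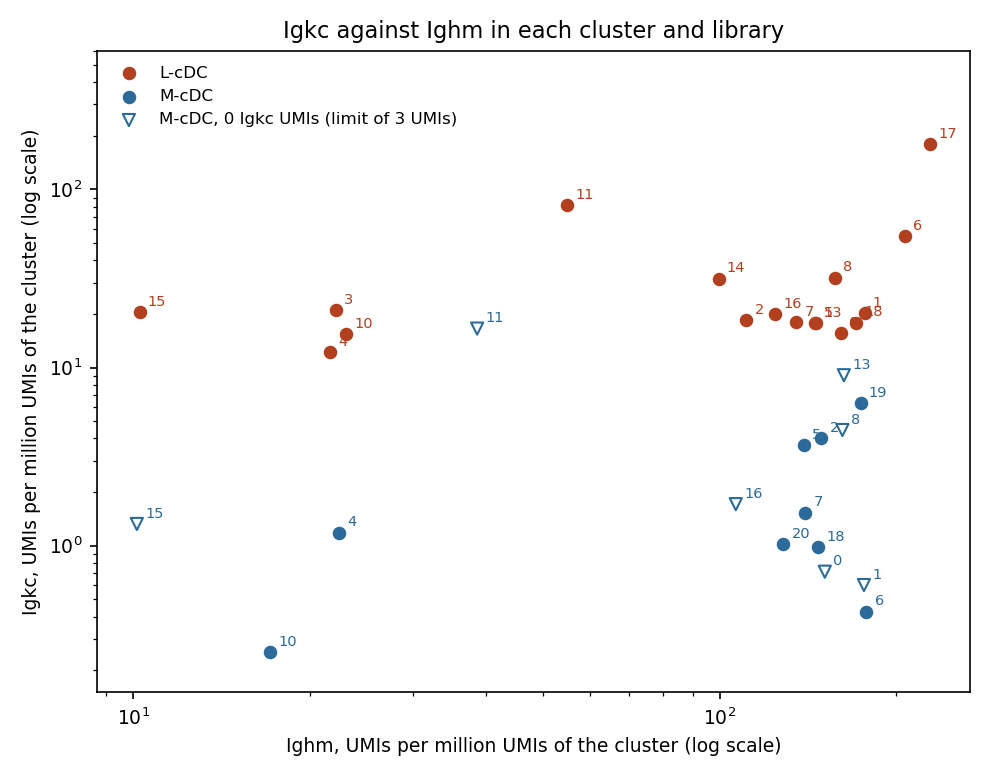
Igkc (vertical) against Ighm (horizontal) in each cluster with at least 30 cells, both in CPM on log scales, L-cDC in red and M-cDC in blue, numbers naming clusters. Open triangles mark clusters with 0 Igkc UMIs at the level of 3 UMIs. Clusters spread along the Ighm axis alike in both libraries, from about 10.3 to 177 CPM among L-cDC mature clusters, while the libraries part along the Igkc axis.

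The ratio of the genes to each other varied within a library. Ighm per Igkc was 5.52 (5.08 to 6.0) over L-cDC DC and 87.8 (68.4 to 115) over M-cDC DC. Among L-cDC clusters of mature cells it ran from 0.50 (0.243 to 0.982) in cluster 15 through 1.05 (0.764 to 1.44) in cluster 3 to 10.3 (8.18 to 13.2) in cluster 0. In the B-like cells it was 1.13 (1.06 to 1.20). In barcodes under 500 genes it was 1.0 (0.668 to 1.5) in L-cDC and 2.50 (1.24 to 5.36) in M-cDC, the latter on few Igkc UMIs. How much of the RNA in these barcodes is their own was not tested. In the low-Ighm mature clusters 4 and 10 of M-cDC, Ighm per Igkc was 19.0 (8.46 to 52.9) and 68.0 (11.8 to 2725), above the M-cDC barcodes under 500 genes. In cells with and without an Ighm UMI, the Igkc shares of L-cDC mature cells were close, 13.9% of 1083 with and 13.8% of 1472 without. In L-cDC cDC1-like cells it was 20.9% of 172 with and 29.0% of 31 without, and in cDC2-like cells 19.8% of 232 with and 21.3% of 89 without.

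**Figure D4:**
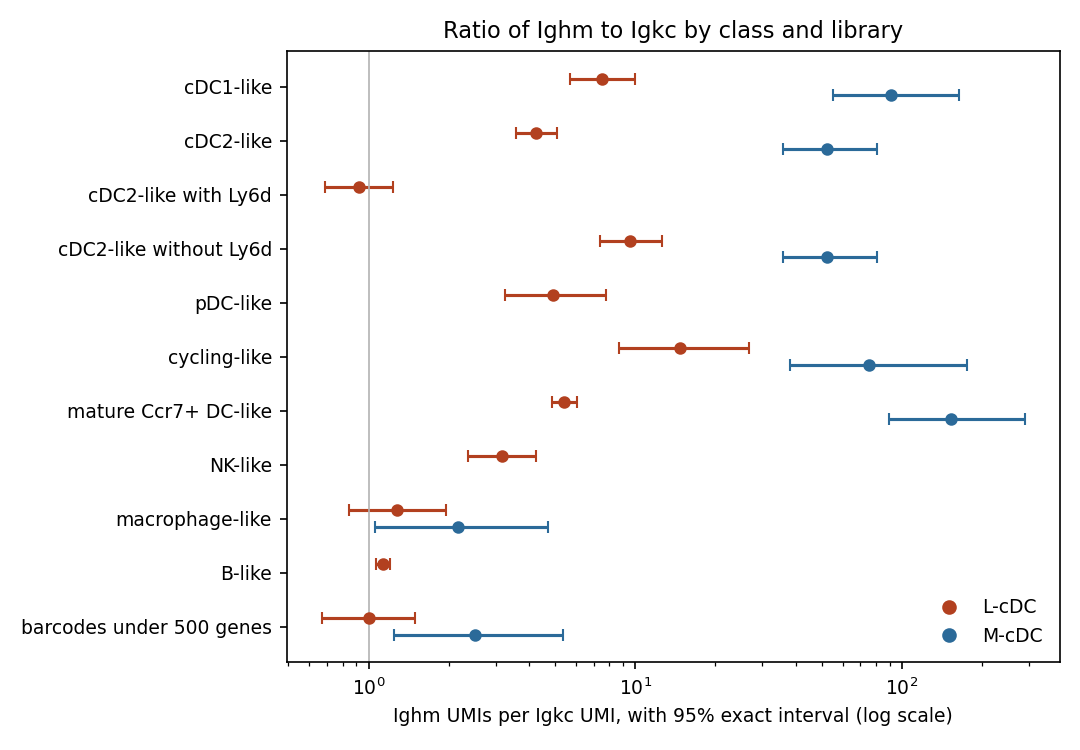
Ighm UMIs per Igkc UMI (horizontal, log scale) in each class, in cDC2-like cells with and without a Ly6d UMI, and in barcodes under 500 genes, with exact 95% intervals, L-cDC in red above M-cDC in blue. DC of M-cDC lie between 52.5 and 154, most L-cDC classes between 3.16 and 14.7, and B-like cells at 1.13; groups without an Igkc UMI are not drawn.

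Light chain genes in large number per cell marked a small set of L-cDC cells. Of the 161 Igkc UMIs in L-cDC cDC2-like cells, 99 lay in 19 cells with a UMI of Ly6d, a surface protein of B cells and pDC. The split by Ly6d was made after these values were seen. In the 19 cells Igkc was at 503 CPM, against 18.3 CPM in the 302 cells without Ly6d, a level like that of the cDC1-like cells. Iglc3 had 83 UMIs in 9 of the 19 cells, 5 to 15 in each, and 0 UMIs in the 302 others. Ighm was at 463 CPM in the 19 and 175 CPM in the 302. Jchain had 20 UMIs in the 19 cells, 19 of them in 1 cell, and 1 UMI in the 302. These cells also had Siglech at 859 CPM, against 49.0 CPM in the 302, with a Siglech UMI in 14 of 19. The pDC-like cluster had Siglech at 58.0 CPM in L-cDC. The 9 cDC2-like cells with at least 5 UMIs of a gene other than Ighm all had a Siglech UMI and 27 to 99 Ly6d UMIs. By these markers the cDC2-like name is uncertain for the 19 cells, whose UMIs are part of the cDC2-like values given here. The 19 cells had 0 UMIs of Cd79a, by construction. Cd79b, the partner of Cd79a, was seen in 4 of the 19 and in 32.1% of the 302. In M-cDC, 1 cDC2-like cell had a Ly6d UMI, with 0 light chain UMIs.

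**Figure D5:**
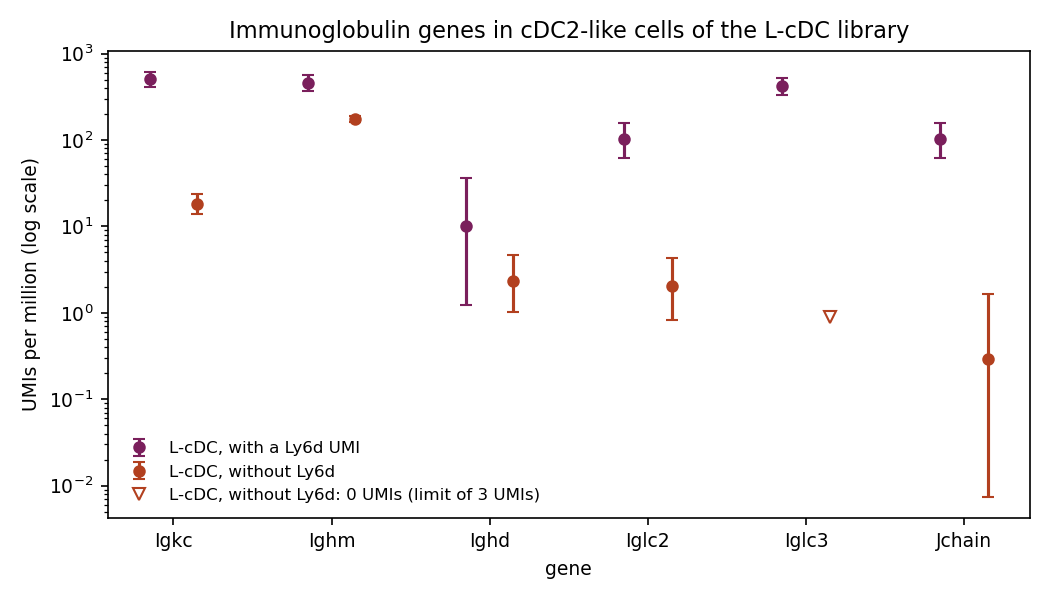
CPM (log scale) of each of the 6 genes in L-cDC cDC2-like cells with a Ly6d UMI (purple, 19 cells) and without (red, 302 cells), with exact Poisson 95% intervals. All 6 points lie higher with Ly6d, Igkc at 503 against 18.3 CPM, with overlapping intervals for Ighd on 2 and 8 UMIs; the open triangle marks 0 Iglc3 UMIs at the level of 3 UMIs.

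Across all kept L-cDC cells outside the B-like cluster and without Cd79a, 23 cells held at least 5 UMIs of 1 of the 5 genes other than Ighm, against 2 in M-cDC. Of the 23, 11 had a Ly6d UMI, 9 were cDC2-like, 5 were NK-like and 12 had both Igkc and Iglc3. With the cells carrying Ly6d set apart, the log2 ratio of Igkc, L-cDC over M-cDC, was 2.69 (2.01 to 3.41) in cDC2-like cells, below the 3.99 with them, and it was 3.56 in cDC1-like cells with or without them.

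The other lambda and joining chain genes were rare. Iglc2 was seen in 2.04% of L-cDC DC (66 of 3238) and 0.0187% of M-cDC DC (1 of 5358). Of the 66 positive L-cDC cells, 61 held 1 UMI. Iglc3 was seen in 1.02% of L-cDC DC (33 of 3238, 128 UMIs) and 0.0560% of M-cDC DC (3 of 5358, 3 UMIs). A single cDC1-like cell of L-cDC held 21 of the 22 Iglc3 UMIs of its class. Jchain was seen in 1.30% of L-cDC DC (42 cells, 86 UMIs) and in 0.280% of M-cDC DC (15 cells, 15 UMIs). Of the L-cDC Jchain UMIs, 26 lay in 1 cycling-like cell that also had 300 Ly6d UMIs. The B-like cells had another make-up: Iglc2 made up 39.9% of their summed UMIs of the 6 genes and 1.81% of those of L-cDC DC, although 2579 of the 3039 Iglc2 UMIs were in 1 B-like cell.

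Ighd was rare, and over all DC its level in L-cDC divided by that in M-cDC was 1.29 (0.882 to 1.90). It was seen in 1.64% of L-cDC DC (53 of 3238) and 1.14% of M-cDC DC (61 of 5358), with nearly all positive cells at 1 UMI. In cDC1-like cells the share was 4.93% in L-cDC and 2.86% in M-cDC, a ratio of levels of 1.40 (0.589 to 3.11). In mature cells 28 UMIs were found in each library, a ratio of 1.01 (0.574 to 1.76). In cDC2-like cells the ratio was 3.20 (1.14 to 9.33), on 10 UMIs in L-cDC and 8 in M-cDC. NK-like cells of L-cDC had more, 14.1% of 198 cells (45 UMIs, 22.5 CPM against 1.72 CPM in L-cDC DC).

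Most Igkc of the L-cDC library lay outside DC. A pair of barcodes with 10962 and 6757 Igkc UMIs held 84.9% of the library's Igkc, 83.8% of its Jchain and 32.0% of its Ighm. Both carried Mzb1, a chaperone of antibody-secreting cells (90 and 281 UMIs), and both had been removed by the doublet filter. Their score of 0.301 was above the threshold of 0.258 used for both libraries, but below the 0.635 set for L-cDC alone. Whether they are doublets was not tested. The DC without Cd79a held 3.16% of the library's Igkc UMIs. M-cDC held 0 barcodes with over 1000 Igkc UMIs. The part of that pair of barcodes in the Igkc of L-cDC DC was not tested. Igha, the constant gene of IgA and no member of the 6, was seen in 2.19% of L-cDC DC and in 0 of 5358 M-cDC DC, which allow up to 0.0560%; the second of these barcodes held 896 Igha UMIs.

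By the fixed size of 1.5-fold, where the library with the larger value reached 20 CPM and both summed to 50 UMIs or more, few of the 6 genes could be placed. In cDC1-like cells only Ighm met both limits and it was not past the size, while Igkc, with 60 UMIs in L-cDC and 15 in M-cDC, was under the level limit at 18.1 CPM in L-cDC. The background was 0.424% of 4721 genes higher in L-cDC. In cDC2-like cells Igkc, Iglc3 and Ighm met both, and Igkc and Iglc3 were higher in L-cDC, against 5.85% of 5405 genes. Igkc and Iglc3 met the level limit only through the 19 L-cDC cells with a Ly6d UMI. In the 302 L-cDC cells of that class without one, Igkc was under the level limit and Iglc3 had 0 UMIs. In mature cells only Ighm met both and it was not past the size, while Igkc was under the level limit at 17.8 CPM in L-cDC. The background was 1.08% of 4370 genes higher and 0.664% lower in L-cDC. The genes were chosen with these comparisons known, so nothing is read from these counts.

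Genes of possible source cells gave a mixed picture. Of 20 B cell genes, 19 had a UMI in DC, but DC themselves are known to make several of them: Cd37 was seen in 20.3% of L-cDC, against 24.3% of M-cDC DC, H2-Ob in 21.2% and 32.8%, and Cd79b in 8.12% and 8.14%. In cDC2-like cells 5 of the 20 had enough UMIs. Of these, Ly6d and Blnk, an adaptor of the B cell receptor, were past 1.5-fold higher in L-cDC, against 5.85% of all genes considered. The median log2 ratio of the 5 was 0.58, against -0.05 over all genes considered. Over all DC, other genes of the list went both ways. Cd22 was at 0.827 CPM in L-cDC, against 5.80 CPM in M-cDC. Fcrla was at 4.71 and 6.94 CPM, Tnfrsf13c at 1.72 and 3.55 CPM, and Ebf1 at 2.48 and 1.43 CPM. In cDC2-like cells 7 of 8 pDC genes with enough UMIs were also higher in L-cDC, among them Siglech, Tcf4 and Bst2, against 5.85% of all genes considered. The median log2 ratio of the 8 was 1.93, against -0.05 over all genes considered. Cluster 6 holds most of the L-cDC cells and cluster 5 most of the M-cDC cells. Siglech was at 124 CPM in L-cDC, against 18.8 CPM in M-cDC within cluster 6, and at 5.18 CPM in L-cDC, against 1.60 CPM in M-cDC within cluster 5. In cDC1-like cells 3 B cell genes had enough and 0 were past the size. The 9 plasma cell genes were dominated by Slamf7, at 383 CPM in L-cDC DC and 373 CPM in M-cDC DC. Prdm1 was the only one past the size, higher in L-cDC mature cells, where 1.08% of all genes considered were higher. Mzb1 was seen in 0.957% of L-cDC DC and 0 of 5358 M-cDC DC. Other genes of the list were lower in L-cDC DC: Xbp1 was at 38.4 CPM, against 52.7 CPM in M-cDC, and Txndc5 at 15.2 CPM, against 22.9 CPM.

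Transcripts of erythrocytes and neutrophils were near 0 in DC, and those of T cells were not. The 6 erythrocyte genes had 2 UMIs in L-cDC and 0 in M-cDC, with all 4 globin genes at 0, and the 7 neutrophil genes had 1 UMI in L-cDC and 12 in M-cDC, 11 of them Ltf. The 7 T cell genes summed to 348 UMIs in L-cDC, against 169 in M-cDC. Trbc1 and Trbc2, the constant genes of the receptor beta chain, were seen in 1.20% and 1.79% of L-cDC DC, against 0.0373% and 0.131% of M-cDC DC. Trac was seen in 3.40% of L-cDC, against 1.94% of M-cDC DC. Among the other immunoglobulin constant genes Ighg3 differed little, at 2.20 CPM in L-cDC, against 2.23 CPM in M-cDC, and Ighg2b was at 1.59 CPM in L-cDC, against 0.450 CPM in M-cDC.

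Genes were also ranked by how closely their level over clusters resembled the summed level of the 6. The 6 themselves were left out. A gene entered only if it reached 20 CPM in a cluster, so rare immunoglobulin genes could not enter. In L-cDC, over 17 clusters, these were Chic2 (Pearson r = 0.888), Ppp1r21 (0.857), Arhgap27 (0.839), Ier5l (0.826) and Plek (0.825). In M-cDC, over 16 clusters, they were H2-Ab1 (0.931), Tyrobp (0.920), Zfp385a (0.918), H2-Aa (0.904) and H2-Eb1 (0.900). The summed level is mostly Ighm, clusters of 1 library share its depth, and the ranking is a description over 8086 genes in L-cDC and 7701 in M-cDC.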

How the data were processed

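The values used are raw UMI counts as deposited, 1 matrix for each library. Per the file headers they were made with Cell Ranger 6.1.2. The genome was GRCm38 (mm10) per the submitters' processing notes. The deposited files of other content list gene names with identifiers and the called barcodes. The totals were 40170515 UMIs in L-cDC and 52973960 in M-cDC. A barcode was kept from 500 genes and up to 10% mitochondrial UMIs. Scrublet (expected rate 0.08) scored doublets within each library. It set thresholds of 0.635 for L-cDC (3 cells) and 0.258 for M-cDC (248 cells), so the lower was used for both and removed 143 and 248 cells. Both libraries were clustered together on log values scaled to 10000 UMIs (2000 variable genes without immunoglobulin genes, 30 components, 15 neighbours, Leiden resolution 1.0, seed 1).

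A cluster took the name of a marker list with a score of at least 0.3 and at least 3 markers at 10 CPM, first by markers among its top 10 genes, then by score. Shallow clusters without such a marker, or led by another list, stayed unnamed. This rule was revised after the first naming was seen, which had required a marker among the top 10 genes. Clusters 9, 11 and 18 stayed unnamed and are not in the DC classes.

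Shares have Clopper-Pearson intervals, levels (CPM, over the UMIs of the class and library) Poisson intervals, and ratios conditional binomial intervals, all 95%. A count of 0 was set to a floor of 3 UMIs over the group. The UMIs carry molecular identifiers, so intervals cover counting of molecules only, not the spread between mice. The functions were checked on simulated data. The members and gene lists were chosen with earlier results of these data known. All 6 genes are named, with up to 4 genes per list by level and the 5 most alike per library. Blnk, Cd22, Fcrla, Tnfrsf13c, Ebf1, Mzb1, the leading genes of clusters and the Ly6d split were chosen after their values were seen. Analyses ran in Python 3.11.15 with scanpy 1.11.5 (clustering), igraph 0.11.9 (Leiden), scikit-learn 1.9.0, scipy 1.17.1 (intervals), pandas 2.3.3, numpy 2.4.6 and matplotlib 3.10.9 (figures).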

Additional observations from a re-analysis of the deposited data

Results flagged for a closer look

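The barcodes removed for having under 500 genes enter no comparison, and immunoglobulin UMIs were found in them. Without those carrying Cd79a there were 459 in L-cDC (median 899 UMIs) and 487 in M-cDC (median 832 UMIs). Igkc was seen in 8.93% of the L-cDC barcodes and 0.821% of the M-cDC barcodes. The M-cDC value rests on 4 barcodes, 1 of which held 6 of the 12 UMIs. Ighm was seen in 9.59% of the L-cDC and 5.54% of the M-cDC barcodes. Ighd was seen in 1.96%, Iglc3 in 1.09% and Jchain in 0.871% of the L-cDC barcodes, and each in 0 of the 487 M-cDC barcodes, which allow up to 0.616%. As a level, Igkc was at 123 CPM in the L-cDC barcodes and 28.4 CPM in the M-cDC barcodes, above the 20.97 CPM and 1.33 CPM of the DC of each library.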

How the results depend on the processing

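No paired analysis was possible because each group has 1 library, and no replicate could be left out. Over 15 alternatives, 126 values were recomputed: 98 stayed within the interval of the reported value, 24 moved out of it and 4 changed direction. The Igkc ratio in cDC1-like cells (log2 3.56) stayed within its interval in 13 of 13. The Igkc share of DC was 5.53% in L-cDC and 0.232% in M-cDC in cells thinned to 3000 UMIs, and 2.04% and 0.224% when a cell counted from 2 UMIs. The Ighm share was 27.3% in L-cDC and 26.0% in M-cDC when thinned, and 28.5% and 26.9% from 2 UMIs, where fewer UMIs are counted by construction. The Ighm share was also 51.4% in L-cDC with at least 1000 genes and 51.5% in M-cDC with at most 5% mitochondrial UMIs. The log2 ratio of Igkc in cDC2-like cells (3.99) was 3.26 with at most 5% mitochondrial UMIs, 3.06 at resolution 0.5, 2.57 at resolution 2.0, 6.07 with cells classed one by one, 4.80 without the cell of each library with most UMIs and 2.69 with Ly6d cells set apart, an alternative added after seeing the data. In mature cells (4.94) it was 3.97 with at least 200 genes and 3.69 with cells classed one by one. The log2 ratio of Ighm in cDC2-like cells (0.36) changed direction with at least 200 genes (-0.29), at most 5% mitochondrial UMIs (-0.20), resolution 0.5 (-0.023) and resolution 2.0 (-0.24). It was 0.21 with at least 1000 genes, 0.16 with doublet-like cells kept, 0.17 with cells classed one by one and 0.93 as UMIs per cell. As UMIs per cell it was 0.18 in cDC1-like cells (-0.05 as CPM) and 0.37 in mature cells (0.12 as CPM). In each of the 4 settings where the Ighm ratio of cDC2-like cells changed direction, a cluster led by Cd209d was named pDC-like and lay outside that class. It held 129 L-cDC cells at resolution 0.5 and 128 at resolution 2.0. It held 217 with at least 200 genes and 224 with at most 5% mitochondrial UMIs. In the main setting cluster 6, led by Cd209d, was named cDC2-like. Apart from the counting settings the cause of the changes was not tested. Depth limits the rare genes: a share of 0 in M-cDC cDC2-like cells allows up to 0.245%.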

Other observations

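Cells of DC classes that did carry a Cd79a UMI had shares of Igkc and Ighm like those without it, and more Ighd. In L-cDC, Igkc was seen in 16.1% of 31 such cells (5 cells) and Ighm in 58.1%, against 15.1% and 49.5% of the DC without Cd79a. Ighd per Ighm was 0.222 (0.0892 to 0.486) in those cells, against 0.0149 (0.0111 to 0.0194) in DC without Cd79a. In the unnamed cluster 11, whose cells were shallow (median 1984 UMIs in L-cDC, 1844 in M-cDC), Igkc was at 81.3 CPM in 188 L-cDC cells and at 0 UMIs in 90 M-cDC cells, and Ighm at 55.0 CPM in L-cDC, against 38.6 CPM in M-cDC.

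Iglc3 was concentrated in few L-cDC cells outside the B-like cluster. In NK-like cells 53 UMIs lay in 6 of 198 cells, 4 of which held 5 or more and up to 18. In the 53 B-like cells, by contrast, Iglc3 was seen in 96.2%, with at most 26 UMIs in a cell. Unnamed cluster 18, led by Nid1, had Ighm at 171 CPM in L-cDC, against 147 CPM in M-cDC, in the range of the mature clusters with the most Ighm.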
